A study of Bos taurus with 2 samples.

Results

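The CpG-dense windows of the ampliconic long arm are 1 kb windows of the cattle Y chromosome that hold at least 25 CpG dinucleotides, the sites where a cytosine is followed by a guanine and where most DNA methylation of mammals is found. They were taken from the stretch between 24 Mb and 57.5 Mb of the long arm, and within it they were chosen by CpG number. The interval from 26 Mb to 27.1 Mb was left out, and earlier results of these data had shown low methylation there, so the bounds of the stretch are not independent of methylation. Of the 32400 windows that remained, 981 (3.03%) met this minimum, and they held 34004 (11.8%) of its 287563 CpGs. Across the whole chromosome, cut in the same way from its first base, 10803 of the 59274 windows with a CpG held at least 25.

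The data are CpG methylation calls from cattle lung DNA, with 1 library read by PacBio HiFi sequencing and 1 by Oxford Nanopore (ONT) sequencing. The Y chromosome itself is the Wagyu haplotype of a fetus from a Wagyu sire and a Charolais dam, and the study states that both platforms were run on the same samples. There is no treated group, no second tissue and no second animal, so every SD below is a spread over windows, CpGs or gene copies within a library, and no difference was tested across animals. The level of a CpG is the percent methylated given for it by each platform. On PacBio this is the output of a calling model over the reads at the site, not a plain share of reads. The level of a window is the mean over its CpGs covered by at least 10 PacBio reads.

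Methylation of CpGs is maintained through cell division and is removed or never laid down at the promoters of many active genes, whose CpG-rich start regions are called CpG islands. Methylated cytosines mutate readily, so CpGs are scarce in most of the genome and dense runs of them stand out. The ampliconic long arm consists of segments repeated many times with little change. Among its gene families are HSFY, which encodes a relative of the heat shock transcription factors, ZNF280B, which encodes a zinc finger protein, TSPY, which encodes a testis-specific Y-linked protein, and PRAME, which belongs to a family of antigens known from testis and tumours.

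No dense window was unmethylated as a whole. On PacBio their mean level was 71.8% ± 6.80 (SD over 981 windows), with a lowest window at 36.5%, a median of 72.2% and a highest at 90.5%. On ONT the mean was 62.7% ± 6.63, with a lowest window at 37.8%, a median of 62.9% and a highest at 80.9%. None of the 981 windows was below 20% on either platform, and 1 window was below 40% on each, a different window in each case. The interval left out held 23 further windows with at least 25 CpGs, which averaged 64.7% ± 13.8 on PacBio and 55.1% ± 12.7 on ONT, and 1 of them was below 20% on both platforms, at 15.5% and 17.0%. The bulk of the PacBio values lay between 60% and 80%, in 847 windows, with 87 windows at 80% or more and 47 below 60%. On ONT 645 windows lay between 60% and 80%, 3 were at 80% or more and 333 were below 60%.

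Single CpGs varied more than windows did. Of the CpGs in the dense windows, 49.6% were at 80% or more on PacBio and 2.58% were below 20%. The same shares on ONT were 22.1% and 3.31%, and the largest ONT class was the one from 60% to 80%, with 42.2% of CpGs. Inside a window the SD over its CpGs averaged 19.97 percentage points on PacBio and 18.4 on ONT. All 34004 CpGs had at least 10 PacBio reads, with a median of 47 and a range from the 5th to the 95th percentile of 29 to 61. For a CpG with 47 reads, an estimated 38 of them modified, the share of modified reads was 80.9%. Its 95% interval by Wilson's method ran from 67.5% to 89.6%, counting error only. The depth of the ONT values is unknown, since that file holds percentages without read numbers.

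The platforms gave a similar order of windows but different levels. ONT minus PacBio averaged −9.12 percentage points (SD over windows 4.5), and ONT was the lower in 957 of the 981 windows. Pearson's r between the platforms was 0.775 and Spearman's rho 0.789 over the 981 windows, which share DNA source and CpGs. In the 24 windows where ONT was higher, the median PacBio depth was 49.5 reads, against 47 in all dense windows. The 2 ONT values of a CpG, which belong to its 2 strand rows, averaged 62.2% for the lower and 63.1% for the higher position.

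**Figure D1:**
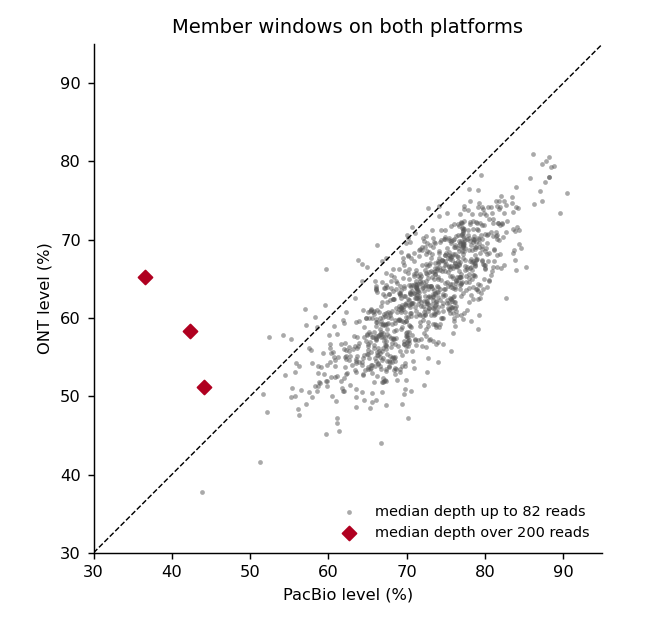
Mean ONT level (vertical axis, percent) against mean PacBio level (horizontal axis, percent) of each of the 981 dense windows. Nearly all points lie below the line of equal levels, by 9.12 percentage points on average, and the 3 windows with more than 200 PacBio reads, all at 44.1% or less on PacBio, lie above it.

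In 3 windows, singled out after their values were seen, the PacBio depth was far above the rest. At 42509001 to 42510000 the depth was 302 reads, and the PacBio level was 36.5% where ONT gave 65.2%. The window from 44028001 to 44029000 had 345 reads, and was at 42.3% by PacBio and 58.3% by ONT. The window from 42511001 to 42512000 had 304 reads, 44.1% by PacBio and 51.2% by ONT. The next deepest window had 82 reads. The first of them is the only dense window below 40% on PacBio. Excess depth moved with the low PacBio values here, and its part in them was not tested. Without these 3 windows r between the platforms was 0.794 and rho 0.791 over 978 windows, and r between PacBio depth and PacBio level went from −0.245 to −0.0631.

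Methylation was higher the more CpGs a window held, also among windows too sparse to belong to the set. Windows of the stretch with 1 to 4 CpGs averaged 33.2% ± 17.2 on PacBio and 28.1% on ONT. Those with 10 to 14 CpGs averaged 51.5% ± 10.8 and 43.1%, and those with 20 to 24 averaged 62.4% ± 7.62 and 53.0%. Inside the dense set the 352 windows with 25 to 29 CpGs averaged 67.8% ± 6.09 and 58.1%. The 366 windows with 30 to 39 CpGs averaged 71.9% ± 5.86 and 63.1%, and the 249 windows with 40 to 59 averaged 76.3% ± 4.76 and 67.7%. The 14 windows with 60 or more were the highest and most uniform class, at 87.1% ± 2.90 and 76.5%. The spread between windows narrowed from class to class. A window level is a mean over its CpGs, so averaging over more CpGs narrows the spread by itself. Its part in the narrowing was not tested.

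The minimum of 25 CpGs did not coincide with a break in levels. The 105 windows with 24 CpGs, just outside the set, averaged 65.9% on PacBio and 56.4% on ONT, and the 82 windows with 25 CpGs, just inside, averaged 66.5% and 56.3%. Within the set, r between CpG number and level was 0.573 on PacBio and 0.633 on ONT over windows that share a library. Outside the PRAME gene array, which holds many of the densest windows, r was 0.463 and 0.579. The whole set lay 17.7 percentage points above the 9527 windows with 10 to 24 CpGs on PacBio and 17.2 on ONT. Against the 21820 windows with 1 to 9 CpGs the differences were 33.2 and 30.4 points.

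**Figure D2:**
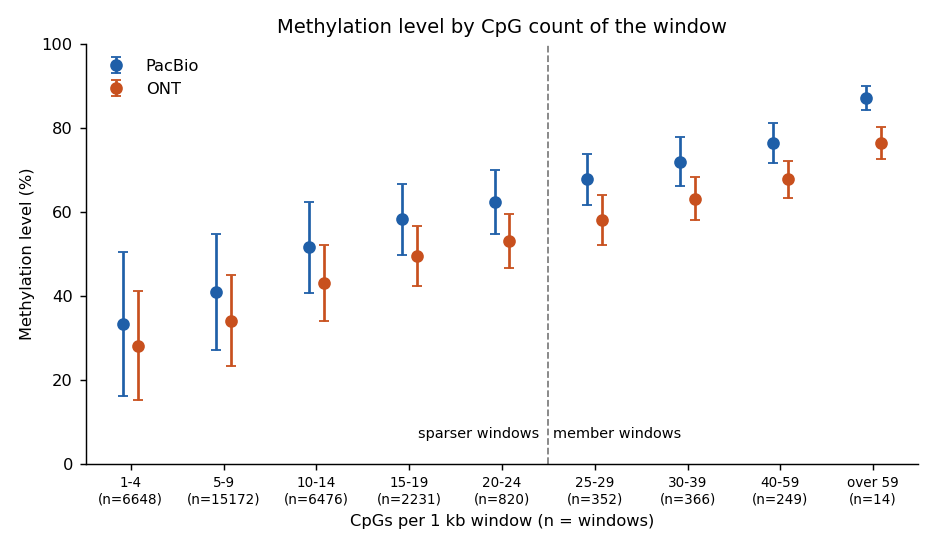
Mean methylation level (percent, with ±1 SD over windows) of the windows of the stretch by the number of CpGs per 1 kb window, for PacBio and ONT, with a dashed line at the minimum of 25. The mean goes up from 33.2% with 1 to 4 CpGs to 87.1% with 60 or more on PacBio, and from 28.1% to 76.5% on ONT.

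Single CpGs were lower the farther their nearest neighbour lay, except at the shortest distances on PacBio. The 4207 CpGs of the dense windows whose neighbour lay 2 bp away averaged 78.0% on PacBio and 73.9% on ONT. At 3 to 5 bp the means were 81.2% and 72.9%, and at 6 to 10 bp 78.4% and 68.5%, so the highest class was the closest on ONT but not on PacBio. At 11 to 20 bp the means were 74.1% and 62.8%, at 21 to 40 bp 58.7% and 49.3%, and at 81 to 160 bp 43.8% and 35.7%. The 80 CpGs of dense windows that stood more than 160 bp from any other averaged 32.2% and 28.6%, close to the 33.8% and 28.4% of such isolated CpGs in the sparser windows. At short distances the sparser windows were lower, at 68.7% and 59.8% for neighbours 3 to 5 bp away.

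Windows beside the dense ones had lower levels, and by the rule they held fewer CpGs. The 1426 other windows that lay 1 kb from a dense one held a mean of 11.6 CpGs and averaged 48.0% on PacBio and 40.6% on ONT. At 2 kb the means were 42.6% and 35.7%, and at 10 kb 39.2% and 32.6%. The 11751 windows more than 20 kb away averaged 45% and 37.6%.

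The dense windows were scattered along the arm, with 1 concentration. They formed 729 runs of adjacent windows, of which 572 were a single window, 145 were a pair and 12 spanned 9 to 11 windows. Between 25 Mb and 26 Mb there were 172 dense windows, most of them in the PRAME gene array, whereas the 30 other full megabases of the stretch held 17 to 35, with a median of 26. Levels varied little from megabase to megabase, with means of 67.5% to 74.4% on PacBio and 58.3% to 64.4% on ONT. The 4 longest runs, of 11 windows each, lay in the PRAME array. The run at 25338001 to 25349000 held 500 CpGs and averaged 77.5% on PacBio and 66.5% on ONT, and that at 25355001 to 25366000, also with 500 CpGs, averaged 77.8% and 65.4%. Those at 25251001 to 25262000 and 25315001 to 25326000 averaged 73.0% and 73.4% on PacBio and 66.1% and 61.9% on ONT.

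The extremes that both platforms placed in the same quintile were a window near a pseudogene at one end and PRAME gene bodies at the other. The lowest was at 24028001 to 24029000, with 46 CpGs, 43.9% on PacBio and 37.8% on ONT at a depth of 52 reads, and it is also the lowest ONT window. It lies 7392 bp from LOC132344653, a ZNF280A pseudogene. The next in rank were the deep window at 42511001 and a window at 25316001 to 25317000, which lies 513 bp from the PRAME copy LOC132344521 and had 51.3% and 41.6%. The highest were at 25341001 to 25342000 inside LOC132344522, where PacBio gave 90.5% and ONT 75.9%, at 25358001 to 25359000 inside LOC789301, with 89.6% and 73.5%, and at 25405001 to 25406000 inside LOC132344524, with 88.9% and 79.4%. The window with the most CpGs, 75 at 24137001 to 24138000, had 79.1% and 76.3% and lies 13355 bp from the ZNF280A pseudogene LOC132344456.

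Since the arm is made of repeated segments, the dense windows were sorted by their CpG spacing, without use of methylation values. Windows were linked where they shared at least 10 exact runs of 6 successive spacings between CpGs, read in either direction, and linked windows formed a group of presumed copies. The 981 windows fell into 61 groups, of which 16 held at least 5 windows and 32 held a single window. The 10 largest held 877 windows (89.4%), so a small number of spacing patterns took in most dense windows.

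The largest group had 330 windows in 267 places along the arm, 326 of them away from any gene. It averaged 73.4% ± 5.77 on PacBio and 65.6% ± 5.92 on ONT. The second held 123 windows, 117 of them away from genes, and also took in the starts of some TSPY genes and of a TSPY pseudogene. It averaged 71.7% ± 5.53 and 59.7% ± 5.09. The third was the PRAME group, with 117 windows in gene bodies or at gene ends, at 76.1% ± 7.29 and 66.3% ± 6.85. The fourth, with 110 windows in 76 places, contained ZNF280B starts and averaged 73.1% ± 4.29 and 64.6% ± 3.34.

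The smaller named groups spanned a wider range of means. A group of 51 single-window copies averaged 68.8% ± 2.87 on PacBio and 57.2% ± 2.17 on ONT, the tightest of the 10 largest on both platforms. A group of 40 copies was low on PacBio, at 62.6% ± 4.57, but less so on ONT, at 57.7% ± 3.21. A group of 27 copies showed the opposite order, with 67.3% ± 3.78 and 53.3% ± 2.2, so these groups ranked differently on the platforms. The group of 19 windows at PRAME starts was the highest of the 10, at 77.1% ± 5.06 and 67.6% ± 3.76. The group of 10 windows between PRAME genes was the lowest of the 10 on both platforms, at 59.5% ± 4.45 on PacBio and 53.0% ± 3.40 on ONT. The remaining group, of 50 windows, averaged 71.8% ± 8.39 and 65.0% ± 3.86. It holds the deep windows at 42509001 and 44028001, and its other 48 windows averaged 73.1% ± 5.16 on PacBio.

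**Figure D3:**
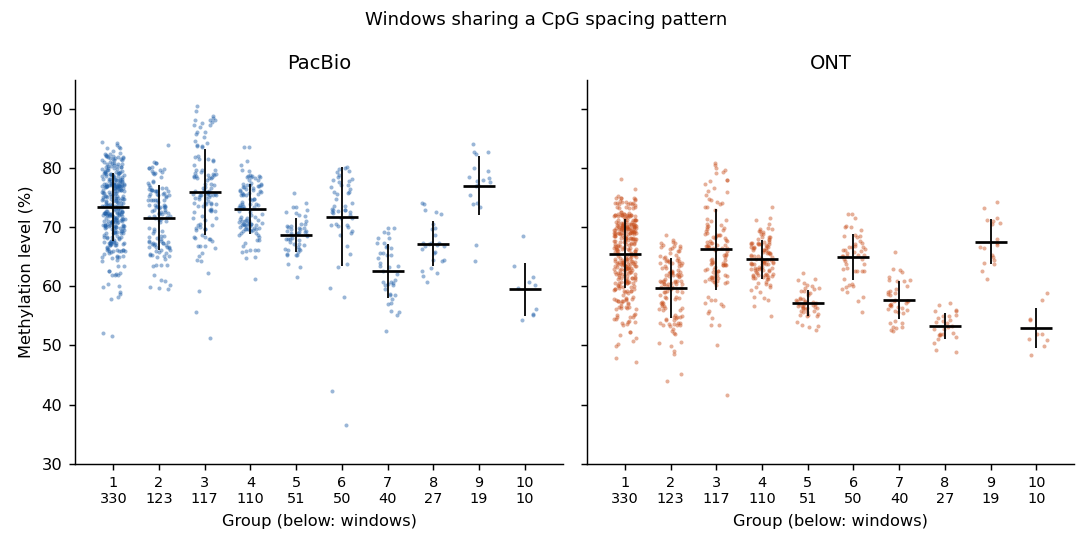
Methylation level (percent) of the windows in each of the 10 largest groups that share a CpG spacing pattern, for PacBio and ONT, with each window as a point, the group mean as a horizontal bar and ±1 SD over windows as a vertical line. Group means go from 59.5% to 77.1% on PacBio and from 53.0% to 67.6% on ONT.

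Group membership accounted for part of the spread of levels. Differences between groups made up 34.1% of the variance over windows on PacBio and 45.1% on ONT. The SD within a group was 5.73 percentage points on PacBio and 5.10 on ONT, and the SD of the group means was 5.74 and 5.65. Over the 16 groups of at least 5 windows, the group means on the platforms had an r of 0.923 and a rho of 0.915. Between the mean CpG number of a group and its mean level, r was 0.813 on PacBio and 0.859 on ONT. These are descriptions over groups that share both libraries.

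Levels were also compared at single CpGs that recur in many copies. A site type was defined as a CpG with the same 3 spacings on each side in at least 20 copies, which gave 395 types with a median of 33 copies and 15332 CpGs (45.1% of those in dense windows). Within a type the SD over copies was 8.95 percentage points on PacBio and 6.55 on ONT, and the SD of the type means was 15.9 and 16.4. Differences between types made up 75.3% of the variance on PacBio and 85.4% on ONT. Counting error alone gives an SD of 5.80 points at the PacBio depths. Without the 3 deep windows the PacBio SD within a type was 8.49 points and the share between types 77.1%. Type means had an r of 0.900 between the platforms over the 395 types. Whether reads were shared or exchanged between near-identical copies when they were aligned was not tested.

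Low site types were few. On PacBio 190 types averaged 80% or more and 16 averaged below 40%, and those 16 were also among the 36 below 40% on ONT. They held 472 CpGs. Their nearest CpG lay at a median of 22.5 bp, with a range of 3 to 48 bp, against a median of 9 bp for all types. Some low types thus had a close neighbour. The lowest type, a CpG of the largest group with 27 copies and its nearest CpG 48 bp away, averaged 11.3% ± 6.16 on PacBio, with copies from 4.7% to 29.8%, at a median depth of 49 reads. On ONT it averaged 11% ± 3.32, with copies from 5.54% to 19.7%.

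Dense windows made up a larger share of the windows at genes than of those away from them, although most lay at no annotated gene. The stretch holds 98 genes of the RefSeq table, 80 of them protein-coding and 17 pseudogenes. A gene end lay in or within 1 kb of 88 dense windows (8.97%), 93 (9.48%) lay in gene bodies and 800 (81.5%) were at neither. Of all 32400 windows of the stretch, 1.54% were at gene ends, 2.25% in gene bodies and 96.2% at neither, so that 17.6% of the windows at gene ends, 12.7% of those in gene bodies and 2.57% of the others were dense. Outside the PRAME array these shares were 7.33%, 2.23% and 2.49%, and gene bodies then held no larger share than windows away from genes. Dense windows at gene ends averaged 74.0% ± 6.55 on PacBio and 63.8% ± 6.72 on ONT, those in gene bodies 76.2% ± 7.22 and 66.6% ± 6.84, and the others 71.0% ± 6.53 and 62.1% ± 6.43. Median CpG numbers were 41 at gene ends, 38 in gene bodies and 31 at neither, with median depths of 41, 38 and 48 reads. Their part in the levels was not tested. The lead of gene bodies rested on the PRAME array and turned round without it. Outside it, 31 windows at gene ends averaged 72.7% and 62.0%, 14 in gene bodies 69.7% and 60.3%, and 774 at neither 71.4% and 62.4%.

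The families differed in whether their starts were CpG-dense at all. Starts that met a dense window, in or within 1 kb of it, belonged to 15 of 19 ZNF280B genes, all 14 PRAME genes, 8 of 10 protein-coding TSPY genes and 2 of 7 TSPY pseudogenes. None of 34 HSFY genes and neither ZNF280A pseudogene had such a start. The values that follow are means over the CpGs within 500 bp of a gene's start or of its far end, with SDs over gene copies.

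Most ZNF280B genes had dense, methylated starts and sparse, less methylated far ends. The 15 starts that met a dense window held 47 to 52 CpGs and averaged 77.2% ± 3.80 on PacBio, from 68.9% to 81.9%, and 67.7% ± 2.68 on ONT, from 61.2% to 71.9%. All 15 belonged to the same spacing group. The lowest was LOC132344681 (31101619 to 31112538), whose levels were 68.9% on PacBio and 68.1% on ONT, and the highest was LOC132344688 at 34348601 to 34359672, with 81.9% and 68.1%, so the copies at the PacBio extremes had ONT levels equal to 3 digits. ZNF280BY, at 28864373 to 28875413 on the minus strand, had 47 CpGs at its start, with 73.7% and 61.2%, and 53.4% and 36.4% at its far end. The far ends of all 19 genes held 8 to 13 CpGs and averaged 49.4% ± 7.66 and 43.4% ± 2.86.

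At 4 ZNF280B genes, LOC104974629, LOC132344679, LOC132344680 and LOC132344702, the annotated start met no dense window. The last 3 are short models of 1794 to 1963 bp, against 10920 to 11088 bp for the 15 genes with a dense start, and LOC104974629 spans 33610 bp, so their starts need not be the same point of the gene. Upstream of each short model, 8079 to 8940 bp from its start, lay a copy of the dense element of the ZNF280B starts, and these 3 copies averaged 73.3% on PacBio and 61.5% on ONT. The 4 annotated starts held 3 to 9 CpGs and averaged 25.7% ± 1.2 on PacBio and 19.97% ± 3.46 on ONT, below all 15 dense starts. The spacing group of the dense starts was not limited to genes. Its 15 copies at a ZNF280B start averaged 75.3% ± 3.79 on PacBio and 65.9% ± 2.97 on ONT, and its 61 copies elsewhere, the 3 upstream of short models included, averaged 73.5% ± 3.98 and 65.1% ± 3.04. Without those 3 the other 58 averaged 73.5% ± 3.90 and 65.2% ± 2.95. Median depths were 46 reads at the starts and 47 at the 61 copies.

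Across the dense ZNF280B starts, most steps with many CpGs were high and most with few were low. In the first 250 bp of the gene, with 16 CpGs per copy, the mean was 81.3% ± 4.17 on PacBio and 69.2% ± 3.74 on ONT, and in the 250 bp before the start it was 77.3% and 68.6%. From 500 to 750 bp into the gene it was 62.7% and 57.4%. From 750 to 1000 bp, with 1.07 CpGs per copy, it was 36% and 18.4%, and from 1250 to 1500 bp it was 15.2% and 15.9%. Upstream, between 2000 and 1750 bp before the start, it was 10.6% ± 5.66 and 8.56% ± 3.30. Exceptions to this order included the step 1250 to 1000 bp before the start, where 3.93 CpGs per copy averaged 77.6% ± 7.90 and 70.6% ± 4.17. Farther into the gene, at 5500 to 5750 bp, 0.867 CpGs per copy averaged 76.4% and 66.7%, with CpGs in 7 of the 15 copies. At 10500 to 10750 bp, 1.73 CpGs per copy averaged 67.0% and 55.2%.

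**Figure D4:**
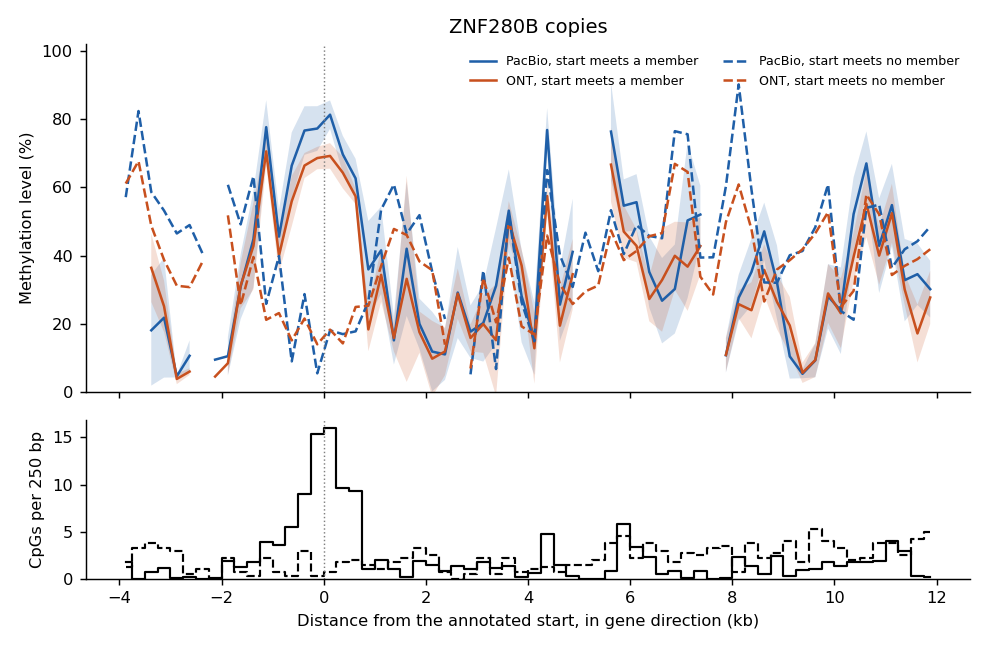
Mean methylation level (upper panel, percent, bands ±1 SD over copies) and CpGs per copy (lower panel) in 250 bp steps by distance from the ZNF280B start, for the 15 copies whose start meets a dense window (solid lines) and the 4 that do not, 3 of them short gene models (dashed lines). The 15 copies peak at 81.3% on PacBio in the first 250 bp, where they hold 16 CpGs each.

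The PRAME genes of the stretch formed an array of 14 copies at 25189455 to 25429053, 239.6 kb long, in which 162 of 241 windows were dense. Of the copies, 10 were over 10 kb long, at 12237 to 13214 bp, and 4 were shorter, with 5 copies on the plus strand and 9 on the minus strand. The 162 windows averaged 73.8% ± 8.65 on PacBio and 64.4% ± 7.78 on ONT at a median depth of 36 reads, and the 819 dense windows outside the array averaged 71.4% ± 6.30 and 62.3% ± 6.33 at 48 reads. The array windows also held more CpGs, with a median of 38.5 against 31. The parts of the lower depth and of the CpG number in these values were not tested. Each long copy held 10 to 12 dense windows, and the means of the 10 long copies lay close together, at 76.5% ± 1.36 on PacBio and 67.1% ± 1.91 on ONT. Of these 10, the lowest on PacBio was LOC785023, with 74.0%, which had the highest ONT mean, 70.2%, and the lowest median depth, 21 reads. The highest on PacBio was LOC132344523, with 78.3%.

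PRAME starts and far ends were both dense and methylated. The 14 starts held 51 to 55 CpGs and ranged from 71.5% to 84.7% on PacBio and from 64.8% to 71.6% on ONT. In 2 pairs of short copies, LOC132344522 with LOC132344538 and LOC789301 with LOC132344539, the starts lie 70 bp apart and share their CpGs. Counted as 12 start regions, they averaged 78.9% ± 3.66 on PacBio and 68.0% ± 2.47 on ONT. The lowest PacBio start was that of LOC785023, with 71.5% and 71.6%, and the highest was the region shared by LOC132344522 and LOC132344538, with 84.7% on PacBio at both and 68.1% and 67.1% on ONT. The far ends averaged 72.6% ± 2.74 and 62.2% ± 4.87. Along the gene the highest step lay 10000 to 10250 bp from the start, where 18.1 CpGs per copy averaged 93.1% ± 1.15 on PacBio and 85.3% ± 1.98 on ONT. The first 250 bp averaged 87.7% ± 3.30 and 75.2% ± 2.85. A gap with 1.8 CpGs per copy lay 3250 to 3500 bp from the start, at 22.0% ± 14.9 and 30.2% ± 14, and another at 5250 to 5500 bp had 35.4% and 25.1%. The SD over copies was small at the peak and wide in the first of these gaps. Each copy had 18.1 CpGs on average at the peak but 1.8 in that gap, so the SDs are not alike in counting error.

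**Figure D5:**
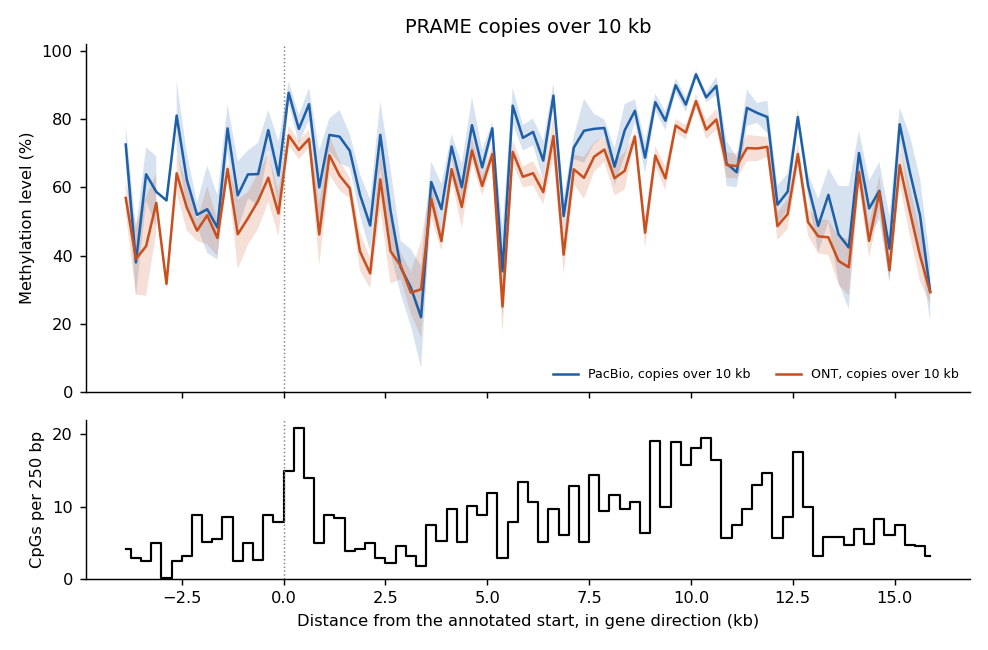
Mean methylation level (upper panel, percent, bands ±1 SD over copies) and CpGs per copy (lower panel) in 250 bp steps by distance from the gene start, over the 10 PRAME copies longer than 10 kb. The highest step, 93.1% on PacBio and 85.3% on ONT, lies 10000 to 10250 bp into the gene, and the step at 3250 to 3500 bp falls to 22.0% and 30.2%.

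Among the starts that met a dense window, those of TSPY held fewer CpGs and had lower means than those of ZNF280B and PRAME. The 8 protein-coding genes whose start met a dense window held 26 to 32 CpGs there and averaged 67.8% ± 5.87 on PacBio and 54.8% ± 6.17 on ONT. On PacBio the lowest was LOC132344659 at 24661639 to 24663580, with 59% and 50.3%. The lowest on ONT was LOC132344658, with 59.5% on PacBio and 44.1% on ONT. LOC132344693 at 36673445 to 36675566 was the highest on both, with 75% and 62.7%. The other 2 starts averaged 56.8% and 47.0%. The far ends of 4 of the 10 genes also met a dense window, but these genes are only 528 to 1363 bp long and it was the window counted at the start. Of the 7 TSPY pseudogenes, LOC132344672 and LOC132344655 had a dense start, with 62.7% and 69.2% on PacBio and 49.1% and 58.0% on ONT. Their far ends met none.

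HSFY genes, the family with the most copies in the stretch, had no dense window at their ends. None of the starts and none of the far ends of the 34 genes met a dense window, and 5 dense windows lay inside the body of 1 of them, LOC132344552, which spans 186358 bp. The starts held 0 to 7 CpGs, and the 33 starts with a CpG averaged 29.6% ± 5.63 on PacBio and 25.1% ± 5.38 on ONT, while their far ends averaged 45.9% ± 11.2 and 38.6% ± 8.4. HSFY2, listed under its own name at 33183479 to 33185329, had 3 CpGs at its start, with 38.8% and 23.2%, and 60.1% and 37.9% at its far end. The starts of the ZNF280A pseudogenes averaged 42.8% and 32.0%.

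Dense windows elsewhere on the chromosome were methylated too, but some were not. In the inner pseudoautosomal region, which pairs with the X chromosome, 1158 windows with at least 25 CpGs averaged 76.7% ± 20.8 on PacBio and 66.8% ± 19.1 on ONT, and 52 of them (4.49%) were below 20% on PacBio. In the male-specific part of the short arm, 4937 such windows averaged 75.8% ± 8.87 and 66.4% ± 7.90, with 31 (0.628%) below 20%. On the long arm between the centromere and 24 Mb, 642 windows averaged 68.6% ± 9.84 and 53.4% ± 10.1, with 5 (0.779%) below 20%. The 981 windows of the ampliconic long arm had none below 20%, with the low interval left out, whereas no such interval was taken from the other sets. With its 23 windows kept there were 1004 windows at 71.6% ± 7.10 and 62.5% ± 6.91, of which 1 (0.0996%) was below 20%. Median depths were 78, 32 and 41 reads in the other sets and 47 in the ampliconic long arm, and median CpG numbers were 29, 45 and 27 against 32. These are values of 1 library per platform, set side by side without a test.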

How the data were processed

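CpG methylation was measured in cattle lung DNA, in 1 PacBio and 1 ONT library. For PacBio, the authors estimated methylation probabilities with Primrose, aligned reads with pbmm2 and ran pb-CpG-tools. The deposited PacBio file gives, per CpG, a percent methylated, a count of reads over the site and an estimated count of modified reads among them. For ONT, the authors called bases and modifications with Dorado, aligned with Winnowmap and ran modbam2bed with thresholds on uncertain calls. The deposited ONT file gives a percent per strand row without read counts. Reads that fit several near-identical copies may have been placed on any of them, which can even out copies.

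The files count positions differently. PacBio positions were turned to the other chromosome end and ONT positions shifted by 20555 bases, so that CpGs matched each other and the RefSeq gene table of the ARS-UCD2.0 build. Gene families and strands are the names of the study's annotation. The level is the PacBio percent, or the mean of the ONT strand rows, averaged over CpGs with at least 10 PacBio reads, in 1 kb windows with at least 25 CpGs. Depth was a median of 47 PacBio reads per CpG, and that of ONT is unknown. No test was run, since each platform has 1 library, and correlations are descriptions. Alternatives were read minimum, CpG minimum, window shift, level column, weighting, ONT row, zeros, depth, pattern rules and gene distance. Members and lists were chosen with earlier results of these data known. Named windows were the 3 lowest and 3 highest on PacBio in the same ONT quintile, the 3 with the most CpGs and the longest runs. Named groups were the 10 largest, and named genes were ZNF280BY, HSFY2 and, in each family, the copies with the lowest and highest PacBio level among those whose ends meet a dense window. Other names were chosen after their values were seen. Tables were handled with pandas 2.3.3 and numpy 2.4.6 in Python 3.11.15, intervals came from scipy 1.17.1, and figures from matplotlib 3.10.9.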

Additional observations from a re-analysis of the deposited data

How the results depend on the processing

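The lead of gene bodies over windows at neither, 5.16 percentage points on PacBio and 4.49 on ONT, became −1.69 and −2.07 without the PRAME array, an alternative chosen after seeing the data. With at least 20 CpGs per window the set grew to 1801 windows and its mean was 67.5% on PacBio and 58.3% on ONT. Its lead over the remaining windows with at least 10 CpGs, those with 10 to 19, was 14.3 and 13.6 points and over windows with 1 to 9 CpGs 28.9 and 26, and the share below 40% on ONT was 1.33% in place of 0.102%. Sparser windows enter by construction there. Leaving out windows of extreme depth took the PacBio share below 40% from 0.102% to 0%, and keeping the interval from 26 Mb to 27.1 Mb, also chosen after seeing the data, took it to 0.199% and the ONT share to 0.299%. The PacBio share was also 0.204% with weighting by reads, 0.212% with windows shifted by 500 bp and 0.222% with at least 20 CpGs, and the ONT share 0.204% from the higher row alone, each a matter of a few windows. The share of variance between groups was 49.8% on PacBio and 59.6% on ONT with 15 shared patterns and 42.0% and 52.3% with patterns of 8 spacings, both of which make finer groups, and 29.5% on PacBio without the PRAME array. Over all alternatives run, the mean level lay between 67.5% and 74.0% on PacBio and between 58.3% and 65.2% on ONT, and the ONT minus PacBio difference between −9.76 and −8.71. The platforms were paired window by window, but no test across animals was possible. With 1 library per platform, variation between animals is not measured, and PacBio depth limits a single CpG more than a window.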
